A study of Mus musculus with 4 samples.

Results

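MicroRNAs (miRNAs) of the mouse mandibular molar tooth germ were compared between embryonic day 12 (E12) and embryonic day 11 (E11), the days over which the dental epithelium goes from a thickening to an early bud. The comparison takes the 2 arrays labelled with these days, 1 per stage, out of 4 arrays in the series, which also covers E14 and E16. Both RNAs came from untreated embryos of ICR mice, an outbred stock, and both were labelled with pCp-Cy3 from 100 ng of total RNA for a 1-colour Agilent miRNA array. How many embryos or litters went into each RNA was not given in the sources used here. With 1 array per stage there is no spread between samples and no test. Every error below is the measurement error deposited with the signals of 1 array, carried through to the difference where a difference is given, and it holds nothing of the variation between embryos.

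Teeth form through exchanges of signals between the oral epithelium, which thickens and buds inward, and the neural crest-derived mesenchyme that condenses around the bud. A miRNA is a short RNA cut from a hairpin precursor; it lowers the output of mRNAs that pair with its seed, bases 2 to 8 counted from its 5′ end. miRNAs with the same seed form a family with overlapping targets. The let-7 family is known for accumulating as embryonic cells leave the undifferentiated state, the miR-200 family and miR-205 for their expression in epithelia, and miR-199a and miR-214 for their expression in mesenchyme.

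The 9 let-7 family members on the array are shown because they made up the largest group of miRNAs that were higher at E12. They share the seed GAGGUAG, printed in capitals, and are given 5′ to 3′ from RefSeq (GRCm38.p6).
let-7a: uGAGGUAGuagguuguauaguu
let-7b: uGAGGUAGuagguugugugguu
let-7c: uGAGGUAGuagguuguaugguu
let-7d: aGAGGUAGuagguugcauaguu
let-7e: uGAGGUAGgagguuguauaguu
let-7f: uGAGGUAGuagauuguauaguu
let-7g: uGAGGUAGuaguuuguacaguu
let-7i: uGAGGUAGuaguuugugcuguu
miR-98: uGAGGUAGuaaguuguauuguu
With positions counted from 1 at the 5′ end and the base of let-7a written before the position, let-7b differed from let-7a by A17G and A19G, let-7c by A19G, let-7e by U9G, let-7f by G12A and let-7d by U1A and U16C. The other differences were G12U and U18C in let-7g, G12U, A17G, U18C and A19U in let-7i, and G11A and A19U in miR-98. RNAs this alike can hybridise to each other's probes; how far they did so on these arrays was not tested.

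The next set is printed because these miRNAs, each with another seed, were also at least 2-fold higher at E12. miR-148a and miR-148b follow miR-152, whose seed they share. miR-27b follows miR-27a for the same reason.
miR-193b: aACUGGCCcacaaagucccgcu
miR-31: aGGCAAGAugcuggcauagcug
miR-152: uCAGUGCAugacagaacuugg
miR-148a: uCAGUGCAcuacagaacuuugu
miR-148b: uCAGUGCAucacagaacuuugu
miR-27a: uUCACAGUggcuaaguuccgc
miR-27b: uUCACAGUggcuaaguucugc
miR-101a: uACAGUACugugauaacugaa
miR-22: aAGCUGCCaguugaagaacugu
miR-365: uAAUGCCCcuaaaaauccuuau
miR-411: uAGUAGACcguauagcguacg

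The last set holds miRNAs that were at least 2-fold lower at E12, the opposite arms of Mir483, Mir20a, Mir106b and Mir181a-1 for the comparison of arms, and 4 miRNAs that were detected at E12 and not at E11.
miR-483: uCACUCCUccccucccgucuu
miR-483*: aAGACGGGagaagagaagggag
miR-323-3p: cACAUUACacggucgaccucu
miR-188-5p: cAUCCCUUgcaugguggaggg
miR-342-3p: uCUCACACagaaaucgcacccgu
miR-335-3p: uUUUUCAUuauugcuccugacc
miR-17: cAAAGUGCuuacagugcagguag
miR-20a: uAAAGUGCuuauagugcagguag
miR-20a*: aCUGCAUUacgagcacuuaaag
miR-106b: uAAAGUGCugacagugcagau
miR-106b*: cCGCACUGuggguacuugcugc
miR-181a: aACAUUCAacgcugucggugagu
miR-181a-1*: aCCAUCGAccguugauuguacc
miR-210: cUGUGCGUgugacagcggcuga
miR-137: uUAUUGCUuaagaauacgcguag
miR-31*: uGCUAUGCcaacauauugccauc
miR-141: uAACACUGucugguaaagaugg
The seeds of the lower miRNAs differed from each other: 14 of the 17 had a sequence in the table used, and these 14 held 14 distinct seeds, against 9 distinct seeds among the 16 higher miRNAs with a sequence.

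The array holds 718 features, of which 22 are controls and the others miRNA probes. Of these probes, 209 were detected at E11 and 221 at E12. Both arrays detected 201, E12 alone 20 and E11 alone 8, while 467 were detected at neither, 43 of which were detected at E14 or E16. The lowest detected signal was 5.48 at E11 and 7.43 at E12, in the arbitrary intensity units of the scanner. The E12 array was brighter: the 75th percentile of the signals, taken over the 197 miRNAs detected on all 4 arrays, was 250.0 at E11 and 398 at E12, a step of 0.67 on the log2 scale. The 6 control features detected on all arrays did not share this step, with a median difference of -0.06 and a range from -0.57 to 0.22. Differences below are E12 minus E11 in log2 signal after each array's 75th percentile was subtracted, and the same difference without scaling is larger by 0.67.

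After scaling, the median of the 201 miRNAs was -0.20, with quartiles at -0.61 and 0.29, and 80 miRNAs were above 0. A miRNA was called higher or lower where it was at least 2-fold apart, a rule of size and not of significance. By this rule 19 miRNAs, 9.45% of the 201, were higher at E12 and 17, 8.46%, were lower. Without scaling, 46 (22.9%) were higher and 2 (0.995%) were lower, so calls in the higher direction made up 52.8% of calls with scaling and 95.8% without. Scaling by the 75th percentile over all probes gave 13 higher and 26 lower, or 33.3% of calls in the higher direction. How much of the brighter E12 array is more miRNA per amount of total RNA was not tested. In bulk tissue, fewer cells of a type and less RNA per cell cannot be told apart.

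All 36 calls were more than 2 combined errors from 0, which the size rule nearly assured, as the largest error among them was 0.54. Without scaling it did not hold for most lower calls, for example miR-18a* (-0.46 ± 0.54) and miR-3072* (-0.36 ± 0.48). The lower calls for which it held were miR-483, miR-323-3p, miR-188-5p, miR-342-3p, miR-335-3p and miR-2134. The calls were drawn more from dim probes than the other miRNAs were. Of the 19 higher miRNAs 9, and of the 17 lower miRNAs 7, had a signal under 20 on at least 1 array. Of the 165 others 27 did. Under all 7 planned scalings, of which the authors' own table is nearly identical to quantile normalization, 11 miRNAs stayed at least 2-fold higher: let-7b, let-7c, let-7f, let-7g, let-7i, miR-31, miR-193b, miR-152, miR-135b, miR-27a and miR-101a. On the lower side 2 did, miR-483 and miR-323-3p, both with E12 signals under 20. Of the 11, miR-31, miR-193b, miR-152, miR-135b and miR-101a had E11 signals under 20. The filter of at least 20 on both arrays left out all of these dim miRNAs. The sign of all 19 and all 17 differences held under each of the 7, which the size rule nearly fixed in advance. Over these scalings the median of all miRNAs moved only between -0.38 and 0.47. The calls closest to the threshold were let-7a and miR-98 (both 1.03) and miR-411 (1.04) on the higher side, and miR-3072*, miR-130b* and miR-1904 (each -1.03) on the lower side. Just short of it were miR-351 (0.97), miR-148a (0.89) and miR-23a (0.87), and miR-92a (-0.99), miR-202-3p (-0.98) and miR-409-3p (-0.97).

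**Figure D1:**
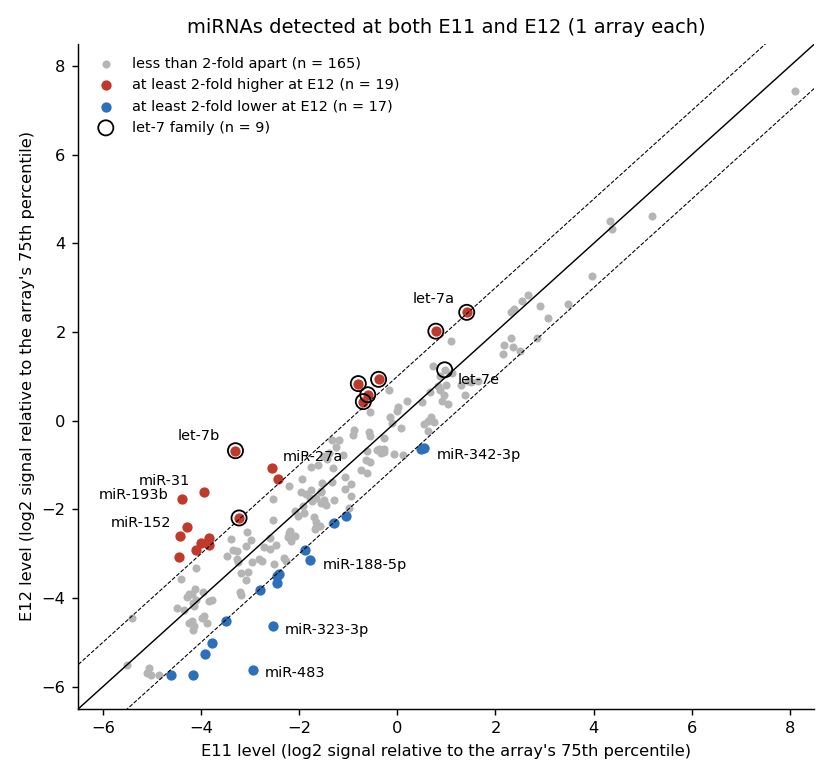
Each point is 1 of the 201 miRNAs detected at both stages, with its E11 level on the x axis and its E12 level on the y axis (log2 signal relative to the array's 75th percentile), the solid line marking equal levels and the dashed lines 2-fold. The 19 red points are higher at E12 and the 17 blue points lower, and 8 of the 9 circled let-7 members lie above the upper dashed line while let-7e lies between the lines.

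The let-7 family held 8 of the 19 higher miRNAs, all of its members but let-7e, beside 9.45% of all 201 miRNAs called higher. The family's median difference was 1.19, or 1.86 without scaling, beside -0.20 and 0.47 for all 201 miRNAs. let-7b, which with let-7c-2 lies on chromosome 15 (GRCm38.p6, chr15:85706616-85707346, plus strand), had a signal of 25.4 ± 4.26 at E11 and 249 ± 19.2 at E12, a 6.15-fold difference after scaling (2.62 ± 0.27). let-7i went from 144 ± 11.4 to 710.4 ± 51.4 (1.63 ± 0.15). let-7c went from 192 ± 14.8 to 759 ± 55.8 (1.32 ± 0.15). The remaining 5 called members lay close together, between 1.03 and 1.23.

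let-7e stood apart from the rest of its family. Its signals were 488 ± 35.2 at E11 and 881 ± 63.7 at E12, a difference of 0.18 ± 0.15 (0.85 without scaling). A difference between 2 probes on the same arrays does not depend on a constant scaling, and let-7b exceeded let-7e by 2.44 ± 0.30, let-7a by 1.59 ± 0.31 and let-7c by 1.31 ± 0.31. let-7e lies with miR-99b and miR-125a in a cluster on chromosome 17 (chr17:17830194-17830876, plus strand), and the 4 miRNAs measured from that cluster lay between -0.72 and 0.18. The cluster of let-7a-1, let-7d and let-7f-1 on chromosome 13 (chr13:48536078-48538260, minus strand) gave 1.03 to 1.23. let-7c is also made beside miR-99a on chromosome 16 (chr16:77598940-77599693, plus strand), and let-7c exceeded miR-99a (0.33 ± 0.16) by 0.99 ± 0.23. These pairs were chosen after their values were seen.

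Outside let-7, the largest difference among the higher miRNAs belonged to miR-193b, a miRNA known for its part in brown fat and muscle cell fate. Its signal was 11.9 ± 3.62 at E11 and 117 ± 10.6 at E12, a 6.19-fold difference (2.63 ± 0.46). miR-365, which shares a cluster with it on chromosome 16 (chr16:13449570-13453916, plus strand) and has a further copy on chromosome 11, went from 46.1 ± 5.84 to 159 ± 13.0 (1.12 ± 0.22). Both miRNAs of the cluster were therefore in the called set, and the E11 signal of miR-193b was near the dim end of the array.

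miR-31, known from hair follicle and other epithelial growth, had a signal of 16.2 ± 3.78 at E11 and 130.2 ± 11.4 at E12 (2.33 ± 0.36, 5.04-fold). The opposite arm of its hairpin, miR-31*, was not detected at E11 and had a signal of 45.0 ± 7.19 at E12. Set against the dimmest detected miRNA of the E11 array, this gives a nominal bound of 5.17-fold higher. Both arms were thus higher at E12. miR-135b, a miRNA often linked to Wnt signalling and to bone, went from 11.6 ± 3.61 to 65.2 ± 7.89 (1.82 ± 0.48). Its family member miR-135a was detected at E12 alone of all 4 stages (22.7 ± 5.07, a nominal bound of 2.61-fold higher by the same rule). A probe with an error like that of miR-135a may need a brighter signal to be detected, so its difference may be smaller than this bound. The opposite arm from Mir135a-1, miR-135a*, was not higher at E12, with dim signals of 7.52 ± 1.87 and 8.35 ± 2.43 (-0.52 ± 0.55).

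miR-152, which lies within the coatomer subunit gene Copz2, went from 12.8 ± 3.65 to 75.1 ± 8.34 (1.88 ± 0.44). miR-148a, with the same seed, went from 99.8 ± 8.61 to 295 ± 22 (0.89 ± 0.16) and stayed under the 2-fold line. miR-148b was nearly level at 26.3 ± 4.32 and 43.6 ± 6.28 (0.06 ± 0.31). Members of this seed family therefore spanned 1.82, and miR-152 exceeded miR-148b by 1.82 ± 0.54.

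miR-27a, processed from 1 transcript with miR-23a and miR-24-2 on chromosome 8 (chr8:84208563-84208896, plus strand), went from 42.8 ± 5.80 to 189 ± 15.3 (1.47 ± 0.23). Its neighbours were also above the median of all miRNAs, miR-23a at 0.87 ± 0.17 and miR-24 at 0.53 ± 0.15, a value to which the copy on chromosome 13 may contribute. miR-27b and miR-23b, the counterparts from the chromosome 13 cluster, were at 0.68 ± 0.18 and 0.13 ± 0.17. miR-27a exceeded miR-27b by 0.79 ± 0.29 and miR-23a exceeded miR-23b by 0.74 ± 0.24; each pair differs at few bases, so the probes may read both. All 5 detected members of these clusters were above 0, with a median of 0.68, although miR-23b was just below 0 (-0.05) with the 75th percentile over all probes.

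The 5 remaining higher miRNAs had dim E11 signals. miR-101a, known to target the Polycomb methyltransferase Ezh2, went from 11.4 ± 3.60 to 47.1 ± 7.22 (1.37 ± 0.50). Its paralog miR-101b was at 0.31 ± 0.51, and miR-101a exceeded it by 1.06 ± 0.72. miR-26a and miR-26b, which also target Ezh2, were at 0.69 ± 0.15 and 0.75 ± 0.16. miR-378, hosted by the metabolic coactivator gene Ppargc1b, miR-143, a miRNA of smooth muscle and mesenchymal cells, and miR-22 went from between 14.5 and 17.6 to between 52.5 and 63.0, with differences of 1.17 to 1.24. miR-411, from the imprinted Dlk1-Dio3 region, went from 17.4 ± 3.83 to 56.8 ± 7.68 (1.04 ± 0.37).

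**Figure D2:**
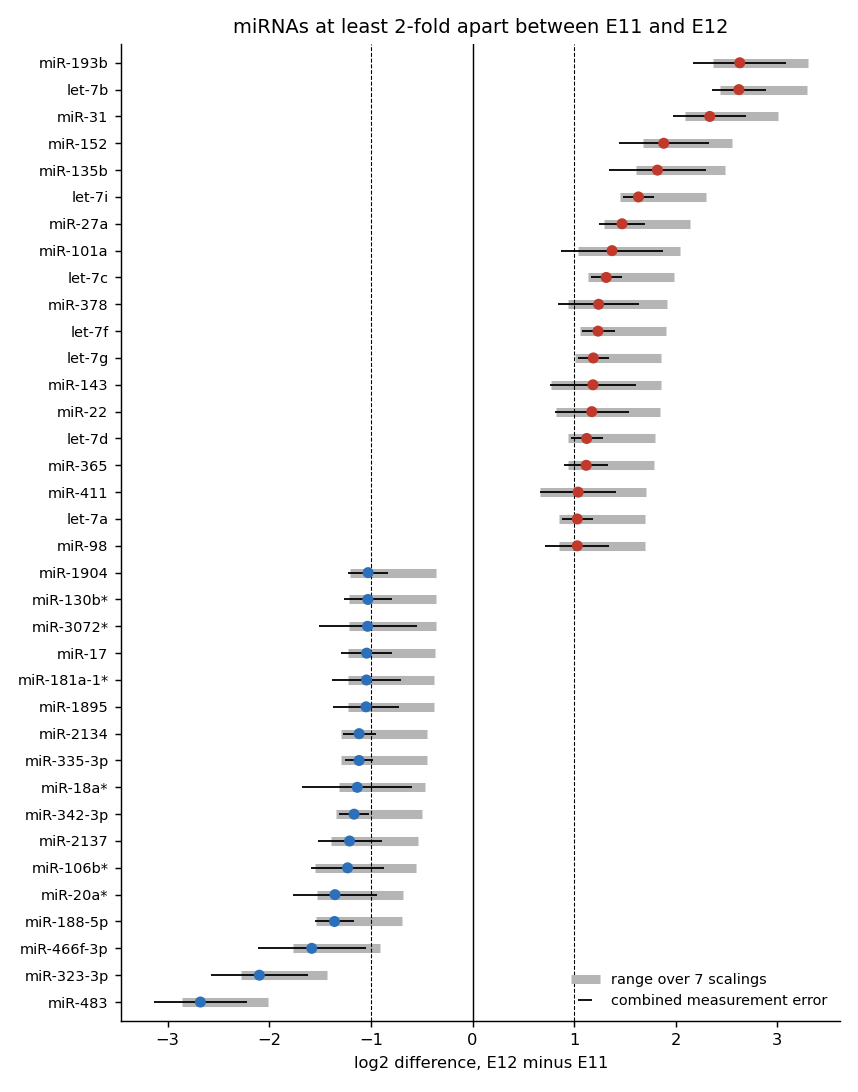
The 36 miRNAs at least 2-fold apart are listed with their log2 difference (E12 minus E11, x axis), the thin bar giving the combined measurement error and the grey band the range over 7 scalings. No band crosses 0; on the lower side only the bands of miR-483 and miR-323-3p stay beyond the dashed 2-fold line, and on the higher side 11 do.

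Among the lower miRNAs, miR-483, which lies within the insulin-like growth factor gene Igf2, was furthest down. Its signal was 32.4 ± 3.52 at E11 and 8.04 ± 2.40 at E12, a 6.4-fold difference (-2.68 ± 0.46; -2.01 without scaling), and the E12 value was close to the lowest detected signal of that array. miR-323-3p, from the Dlk1-Dio3 region, went from 42.9 ± 5.77 to 15.9 ± 4.79 (-2.10 ± 0.48; -1.43 without scaling). It was not detected at E14 or E16. These were the 2 miRNAs that were at least 2-fold lower also without scaling.

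The other 15 lower miRNAs were below 2-fold without scaling, between -0.91 and -0.36. miR-188-5p, which lies in the chloride channel gene Clcn5, went from 72.9 ± 5.0 to 45.2 ± 5.05 (-1.36 ± 0.19). miR-342-3p, located in the cytoskeletal regulator gene Evl and known from immune cells, went from 363 ± 26.4 to 258 ± 19.5 (-1.17 ± 0.15). miR-335-3p, from the imprinted gene Mest, went from 121 ± 7.27 to 89.0 ± 6.50 (-1.12 ± 0.14). For these 3 the deposited signal itself was lower at E12 by more than its stated errors. The rest were miR-466f-3p (-1.58 ± 0.53), 4 miRNAs of the miR-17-92 group and its paralogs described with their cluster, miR-130b* (-1.03 ± 0.24), miR-181a-1* (-1.04 ± 0.34), and entries with little known function such as miR-2137, miR-2134, miR-1895, miR-1904 and miR-3072*.

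Lists of families, clusters and cell types give the surroundings of these calls. The 7 epithelial miRNAs on the array were all detected at E12. The miR-200 family members miR-200a, miR-429 and miR-200c were at 0.76 ± 0.24, 0.66 ± 0.17 and 0.59 ± 0.17, and miR-200b at 0.23 ± 0.16. miR-205 went from 1241 ± 90.3 to 2190 ± 159 in signal, a scaled difference of 0.15 ± 0.15, and miR-203, known from differentiating epidermis, was at 0.04 ± 0.19; both were below 0 at the lower end of the scalings, at -0.03 and -0.14. miR-141, the remaining family member, was detected at E12 alone of the pair (31.0 ± 5.49, a nominal bound of 3.56-fold higher). Of the 6 with values at E11 and E12, the 2-fold line was passed by 0 after scaling and by 3 without it, beside 9.45% and 22.9% of all miRNAs; their median was 0.41, or 1.08 without scaling.

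The mesenchymal list had 8 of 10 members detected at both stages and a median of 0.16, which became -0.02 with the 75th percentile over all probes. miR-199a-3p had signals of 5055 ± 367 and 9031 ± 659 (0.17 ± 0.15), so it was higher at E12 by about as much as the array's 75th percentile, and miR-199a-5p gave 0.16 ± 0.16. miR-214, made from the same precursor transcript as miR-199a-2, went the other way, with signals of 2787 ± 210 and 2460 ± 185 (-0.85 ± 0.15). The opposite arm of its hairpin, miR-214*, was near the median of all miRNAs, at -0.23 ± 0.23 (0.44 without scaling). miR-143 was the 1 called member of the 8, beside 9.45% of all miRNAs called higher.

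The miR-17-92 cluster, a growth-promoting cluster of dividing cells, was on the lower side together with its paralogs. The 9 miRNAs measured from the cluster on chromosome 14 (chr14:115043684-115044496, plus strand) lay between -1.35 and -0.34. Over the cluster and its paralogs, the 10 main arms had a median of -0.48 and 1 call, beside 8.46% of all miRNAs called lower. That call was miR-17 (68.1 ± 7.48 and 52.6 ± 6.94, a difference of -1.04 ± 0.25). miR-92a was just short of 2-fold at 1803 ± 140 and 1443 ± 113 (-0.99 ± 0.16). The direction of the main arms depended on the scaling, since their median was 0.19 without it. The 4 minor arms, miR-20a*, miR-106b*, miR-18a* and miR-17*, had a median of -1.18 (-0.51 without scaling) and 3 calls, beside the same 8.46%. All 3 calls came from probes with signals under 20 on an array.

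The imprinted Igf2, H19 and Mest miRNAs, linked to fetal growth, had all 5 members below the median of all 201 miRNAs. Their median was -0.68, or -0.01 without scaling. Of the 5, 2 were called lower, miR-483 and miR-335-3p, beside 8.46% of all miRNAs. miR-335-5p was level in deposited signal, at 515 ± 44.7 and 512 ± 44.6. In the Dlk1-Dio3 region, an imprinted region on chromosome 12 with a long array of miRNAs, 33 miRNAs were measured at both stages with a median of -0.29 (0.38 without scaling). There was 1 call in each direction, miR-411 and miR-323-3p. The shares called, 1 of 33 each way, were below the 9.45% and 8.46% of all miRNAs.

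Families that stayed within 2-fold, and whose medians near 0 changed sign with the scaling except for miR-30 and miR-15, included miR-30 (5 members, 0.29 to 0.72), miR-181 (4 members, -0.38 to 0.73), miR-130 and miR-301 (4 members, -0.79 to 0.24) and the miR-15 and miR-16 family (5 members, -0.61 to 0.66). The family of miR-99, miR-100 and miR-125 ranged from -0.62 for miR-99b to 0.97 for miR-351. Paralogs with the same seed differed within several of these: miR-100 exceeded miR-99b by 1.37 ± 0.23, miR-181a exceeded miR-181b by 1.11 ± 0.25 and miR-130a exceeded miR-130b by 0.93 ± 0.21. In contrast, miR-26a and miR-26b, and miR-19a and miR-19b, lay within 0.06 and 0.04 of each other. Of the 51 miRNAs in the 15 seeds shared by at least 2 measured miRNAs, the let-7 seed had the widest span, 2.44.

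**Figure D3:**
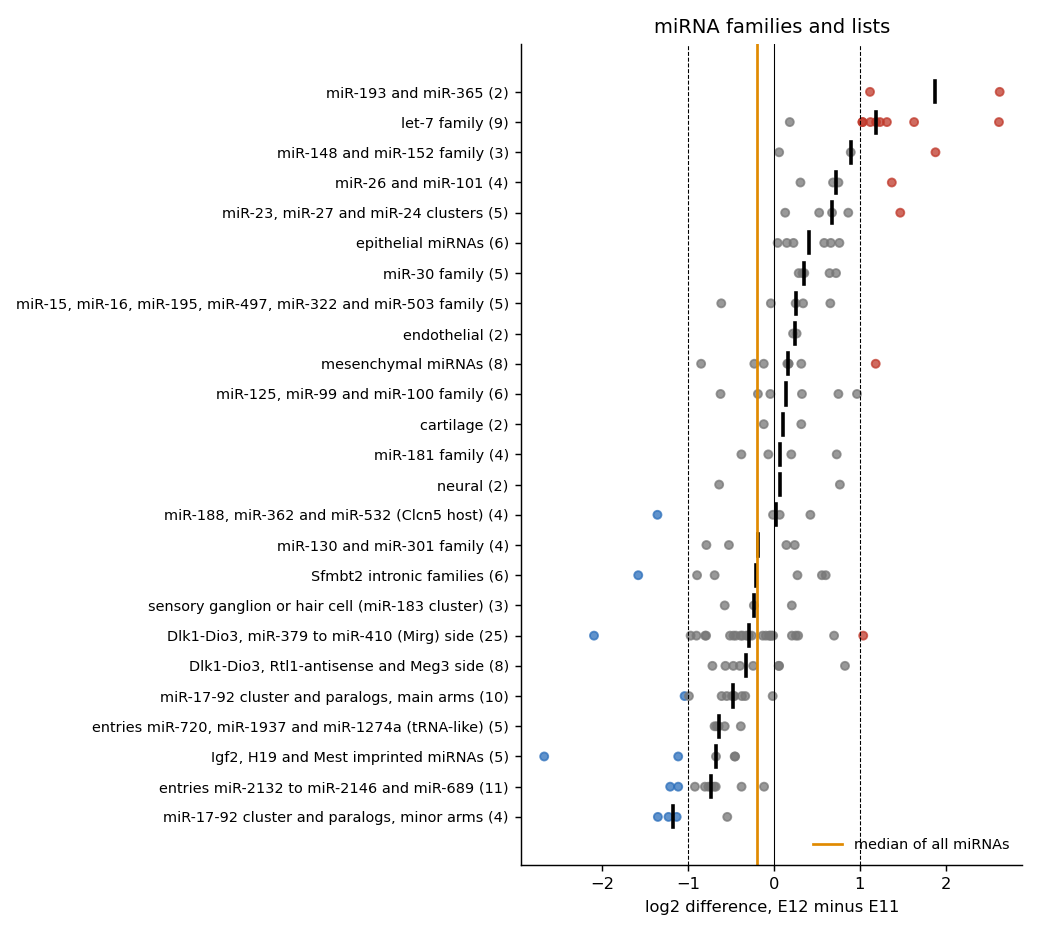
Points are the miRNAs of each family or list detected at both stages (number in brackets), on an x axis of log2 difference, E12 minus E11, with red and blue for calls, a black tick for the list median and an orange line for the median of all 201 miRNAs (-0.20). The let-7 points lie to the right of this line with let-7e nearest to it, and the points of the minor arms of the miR-17-92 group and of the Igf2, H19 and Mest list lie to its left.

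For 18 hairpins both arms were detected at both stages, which compares arms on the same arrays. For 16 of them both arms come from 1 precursor gene in the table used, while miR-181a and both arms of miR-199a have a further locus. The arms differed by more than 2 combined errors in 6 hairpins, and the median absolute gap was 0.60. The widest gap was in Mir483, where miR-483* had signals of 91.3 ± 9.34 and 106.1 ± 11.1 (-0.45 ± 0.21) beside the drop of miR-483, a gap of 2.22 ± 0.50. In Mir181a-1, miR-181a went from 73.4 ± 7.70 to 194 ± 17.1 (0.73 ± 0.20) while miR-181a-1* went from 45.5 ± 5.83 to 35.1 ± 6.87 (-1.04 ± 0.34). Since miR-181a is also made from Mir181a-2, that gap does not belong to 1 precursor alone.

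In Mir106b, which lies within the DNA replication gene Mcm7, miR-106b was level after scaling (397 ± 30.3 and 624 ± 47.2; -0.02 ± 0.16) and miR-106b* was lower (18.2 ± 2.50 and 12.4 ± 2.58; -1.23 ± 0.36). The 3p arm of Mir337 was higher than its 5p arm by the same measure (0.83 ± 0.36 and -0.40 ± 0.32), and in Mir154 the 5p arm was the higher (0.28 ± 0.30 and -0.80 ± 0.21). In Mir214 the arms differed by 0.62 ± 0.28, with the 5p arm miR-214* at -0.23 ± 0.23 and the 3p arm miR-214 at -0.85 ± 0.15. The arms of miR-199a were level with each other, 0.16 ± 0.16 and 0.17 ± 0.15. In 13 of the 18 hairpins the 5p arm had the higher difference.

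**Figure D4:**
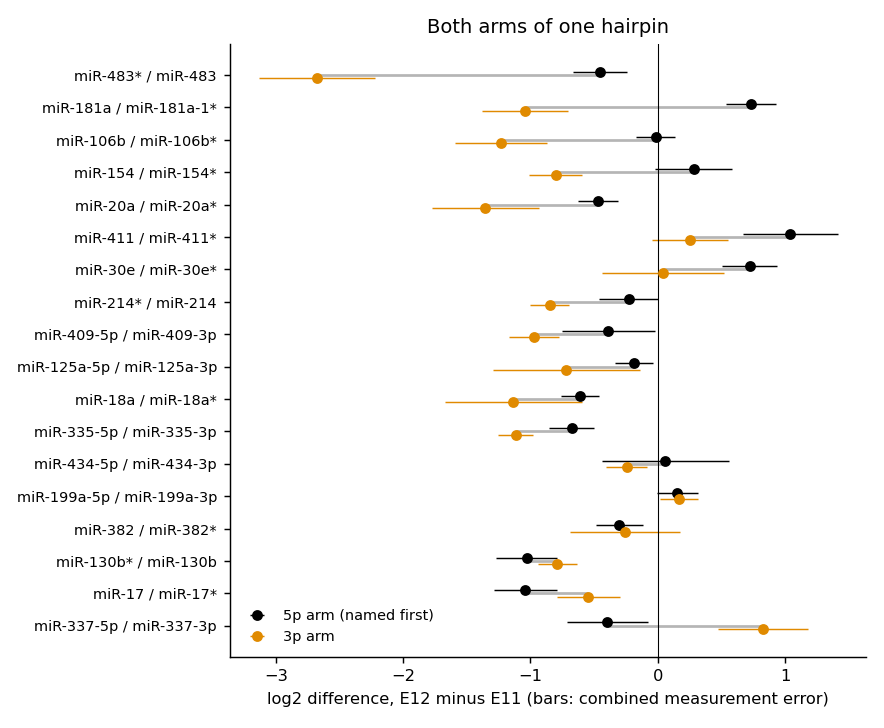
For the 18 hairpins with both arms detected at E11 and E12, black points give the 5p arm (named first) and orange points the 3p arm, on an x axis of log2 difference (E12 minus E11), with bars for the combined measurement error. The joining line is longest for miR-483* and miR-483 (2.22), and the arms of miR-199a coincide.

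A miRNA detected at 1 stage has only a bound, its scaled level set against the dimmest detected miRNA of the opposite array. The bound is nominal, because detection depends on each probe's own error and some undetected probes may lie above that signal. Among probes with an E11 error near 3.6, the dimmest detected was miR-669n at 11.1 ± 3.60, above the 5.48 used for the E11 bounds. Among probes with an E12 error near 4.8, it was miR-362-3p at 14.9 ± 4.76, above the 7.43 used for the E12 bounds. For probes with such errors the true difference may be smaller than the nominal bound. miR-210, the best known miRNA of the hypoxia response, was the furthest of the 20 detected at E12 and not at E11. Its signal was 83.2 ± 8.81, a nominal bound of 9.54-fold higher. miR-137, known from neural cells, followed at 59.2 ± 7.64 (a nominal bound of 6.79-fold higher) and was not detected at E14. miR-669a and miR-467b, from the repeat-like cluster in an intron of the Polycomb gene Sfmbt2, had bounds of 5.75-fold and 5.56-fold, and miR-872 and miR-28 of 3.73-fold and 2.70-fold. Of the 10 miRNAs with names of that cluster's families detected at either stage, 4 were detected at E12 alone of the pair. This stands beside 20 of all 229 miRNAs detected at either stage (8.73%), while miR-466f-3p was among the lower calls. These 10 were matched by name and not by position. miR-467f and miR-669n among them lie on chromosomes 11 and 3, so the count is not of the cluster alone.

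miR-503, a cell cycle miRNA of the miR-15 and miR-16 family, had a bound of 3.22-fold, miR-676, which lies in the ectodysplasin gene Eda, 2.88-fold, and miR-34a, a p53 target, 2.35-fold. Of the 20, 13 were detected again at both E14 and E16. On the other side, 8 miRNAs (3.49% of the 229) were detected at E11 and not at E12. The largest nominal bounds were 6.20-fold lower for miR-697 (29.0 ± 3.71 at E11) and 5.54-fold lower for miR-1906 (25.9 ± 5.17). Next were miR-1982* (2.39-fold) and miR-183* (1.70-fold). Of these 8, 7 were detected again at both E14 and E16. The last 4 of them, miR-134, miR-712, miR-706 and miR-338-5p, had E11 signals of 5.84 to 6.63, under the lowest detected signal of the E12 array, so without scaling they have no fold.

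Markers of other cell types were in part undetected. None of the 8 muscle and 3 liver probes was detected at either stage, nor were the 22 probes of pluripotency clusters, the 9 Hox cluster probes or the 3 miR-29 probes. Of 2 erythroid probes, 1 was detected at neither stage. Erythroid miR-451 had signals of 404 ± 30 and 422 ± 31.2 (-0.61 ± 0.15 after scaling, 0.06 without). Endothelial miR-126-3p and miR-126-5p were at 0.22 ± 0.15 and 0.26 ± 0.48, and cartilage miR-140 and miR-140* at 0.32 ± 0.35 and -0.12 ± 0.22. Leukocyte miR-223 was detected at E12 alone of the pair, at 17.6 ± 4.85, and 5 of the 6 leukocyte probes at neither stage. Of 13 neural probes, 10 were undetected at both stages. miR-128 was at 0.77 ± 0.45 and miR-212 at -0.64 ± 0.22, and miR-137 was detected at E12 alone of the pair, with a nominal bound of 6.79-fold. The miR-183 cluster, a marker of sensory ganglia and hair cells, gave 0.21 ± 0.15 for miR-96, -0.23 ± 0.15 for miR-183 and -0.57 ± 0.19 for miR-182, a median of -0.23 that became 0.43 without scaling, and miR-183* was detected at E11 alone of the pair. The part of differing cell content in the results above was not tested.

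The calls also differed in base composition, which no step of the choice used. Over the 157 miRNAs with a RefSeq sequence, the median GC content was 40.9% for the 16 higher, 53.5% for the 14 lower and 45.5% for the 127 others. Of the 17 miRNAs above 60% GC, none was higher and 6 were lower, and their median difference was -0.62, against -0.01 for the 33 at or below 40%. Across miRNAs, which are not independent and share the same 2 arrays, GC content and the difference had a Spearman correlation of -0.35 and a Pearson correlation of -0.31 (n = 157), or -0.30 and -0.27 without the let-7 family (n = 148). Among array entries of uncertain identity, the 11 measured among miR-2132 to miR-2146 and miR-689 were all below 0, with a median of -0.74 (-0.07 without scaling). The 5 entries of the miR-720, miR-1937 and miR-1274a group, which resemble tRNA fragments, lay between -0.69 and -0.39 with a median of 0.02 without scaling. The part of base composition in the differences was not tested.

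The later stages show where the E12 levels lie in the course; they are given side by side, since the steps share arrays. Over the 4 stages in order, the signals of let-7b were 25.4, 249, 660.2 and 1193, and those of miR-31 were 16.2, 130.2, 525 and 1257. Both were higher on each later array. miR-193b had signals of 11.9, 117, 144 and 179, so its scaled level was -4.39 at E11 and then -1.76, -1.87 and -1.91. miR-152 and miR-135b likewise had their lowest level at E11. After scaling, neither exceeded its E12 level at E14, but both did at E16. From E12 on, the scaled levels were -2.40, -2.70 and -1.85 for miR-152 and -2.61, -3.35 and -2.41 for miR-135b.

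On the lower side, miR-342-3p had scaled levels of 0.54, -0.63, -1.57 and -1.91, lower at each stage. miR-20a* stayed near its E12 level, at -5.27, -5.19 and -5.14 from E12 on. miR-483 did not keep a direction: its signal was 32.4 at E11, 8.04 at E12, 37.2 ± 4.05 at E14 and 7.24 ± 2.20 at E16, whereas miR-483* from the same hairpin had scaled levels of -1.45, -1.91, -3.93 and -4.55. The low E12 value of miR-483 thus rests on 1 dim measurement between brighter neighbouring stages.

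**Figure D5:**
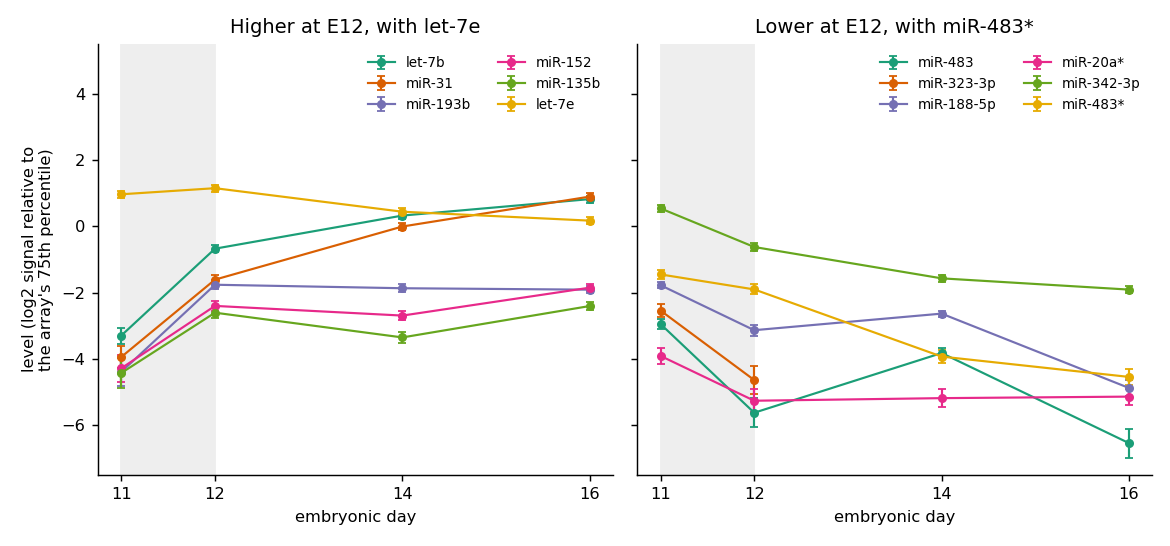
Levels (log2 signal relative to the array's 75th percentile, y axis) of 6 miRNAs per panel are drawn against embryonic day, with 1 array per day, bars for the measurement error and the E11 to E12 step shaded; levels of different probes are not comparable. In the left panel let-7b and miR-31 continue upward after E12 while miR-193b stays near -1.9 and let-7e is lower after E12; in the right panel miR-342-3p is lower at each stage, miR-483 returns to -3.83 at E14, and miR-323-3p ends at E12, after which it was not detected.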

How the data were processed

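Per the file headers, the deposited intensities are total gene signals on a linear scale, each with an error and a detection flag. Undetected features are written as 0.1. Software, array design and background correction were not given in the sources used here. The authors' series table holds intensities on a linear scale; quantile normalization of the scanner signals gave all of its detected values (209, 221, 249 and 250 by stage) to within 0.1%, with no centring. Its medians over detected values were 123, 106, 83.7 and 83.0, and over all values 0.1; the authors' method was not given in the sources used here, and the table served as an alternative.

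Of 718 features, 22 controls were left out. Log2 signals of detected miRNAs had the array's 75th percentile over the 197 miRNAs detected on all 4 arrays subtracted. Errors were converted to log2 and combined as a root of summed squares. The text names every miRNA at least 2-fold apart, up to 10 of highest signal each way detected at 1 stage, the let-7 members, up to 6 members of each other list, 3 on each side of each threshold, and members of seed groups, arm pairs and marker lists behind small counts; hairpins and paralog pairs given beyond these were chosen after their values were seen. The comparison, lists and rules were chosen with earlier results of these data known.

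Array names were kept. Sequences and hairpin positions are from RefSeq (GRCm38.p6): 47 miRNAs detected at E11 or E12 matched by name, and 132 through a hand-made table that gives older names without an arm their current arm. Clusters join mature sequences within 10 kb, and their coordinates run from the first to the last of these. Scripts ran in Python 3.11.15 with numpy 2.4.6 and pandas 2.3.3 and were tested on simulated data. Alternatives were other scalings, filters on dim signals and a 1.5-fold rule. Having 1 array per stage limits the precision.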

Additional observations from a re-analysis of the deposited data

How the results depend on the processing

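The count of higher miRNAs, 19, became 46 with no scaling, 43 with scaling by the median of 6 control features (an alternative chosen after seeing the data), 10 with signals of at least 5 errors on both arrays, 10 with signals of at least 20 on both arrays and 39 with a 1.5-fold rule. The count of lower miRNAs, 17, became 26 with the 75th percentile over all probes, 2 with no scaling, 2 with the control features, 10 with each of the dim filters and 52 with the 1.5-fold rule. The let-7 median, 1.19, was 1.01 with the 75th percentile over all probes, 1.86 with no scaling and 1.81 with the control features. Apart from the filters and the fold rule, which change what is counted, these shifts follow from the constant subtracted from each array. None of the 37 single differences followed changed sign under any setting run, which for the calls the 2-fold rule nearly fixed in advance. Differences nearer 0 did change sign over the scalings. miR-205 ranged from -0.03 to 0.82, miR-203 from -0.14 to 0.71 and miR-23b from -0.05 to 0.80. Of 30 list medians, 16 had the other sign under at least 1 setting, 10 of them with no scaling. No paired analysis was possible because each stage has 1 array, and no replicate could be left out. Measurement error limits dim miRNAs most: the median error was 9.55% of the signal at E11 and 9.45% at E12, but a detected signal can be as low as 3.06 times its error.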
